A study of Mus musculus with 2 samples.

Results

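The genes described here encode matrix metalloproteinases (Mmp), the related Adam and Adamts families, and the tissue inhibitors of metalloproteinases (Timp). They were followed in mouse bone marrow stromal cells after total body irradiation. Members were taken by name: every gene on the array whose platform symbol starts with Mmp, Adam or Timp followed by a digit or by ts. This gave 75 genes (76 probes) of 16390 named genes: 22 Mmp, 27 Adam, 18 Adamts, 4 Adamts-like (Adamtsl) and 4 Timp genes. The rule itself uses names and no measured value.

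Cells came from C57BL/6 mice that were unirradiated or had received 9.5 Gy either 1 or 3 days earlier. Each time point was put on 1 array with 2 channels, the unirradiated RNA in Cy5 and the irradiated RNA in Cy3. The series text gives 6 mice without saying how they were divided or pooled, and their age and the way stroma was separated from other marrow cells are not given in the sources used here. With 1 array per time point and no exchange of dyes, the values have no replicate error and no p-value is given. Counts of higher and lower genes always mean a log2 ratio of 1 or more in size, that is 2-fold or more. The only spread these data hold is between different probes of the same gene on one array, and its pooled SD (log2) was 0.76 on the day 1 array (85 genes) and 0.58 on the day 3 array (116 genes). Variation from mouse to mouse or from one hybridisation to the next is not part of it.

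The labels name the dyes but not the numerator of the ratio. A positive value is taken to mean more transcript after irradiation; this reading is likely, not settled. Its basis is the p53 targets, which radiation is known to induce, with median log2 ratios of 1.60 and 1.36 on the day 1 and day 3 arrays, while the mitotic genes had 0.95 and -3.10. Were the ratio the inverse, all directions given here would turn round. Both arrays used unirradiated RNA, possibly the same extract, so values at day 1 and day 3 may not be independent of each other. The dyes were also placed the same way on both arrays, so a dye effect on a gene cannot be told apart from irradiation.

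Mmp enzymes are made as inactive precursors and cut collagens, gelatins and other matrix proteins outside the cell, either secreted or anchored to the membrane. Adam proteins sit in the membrane, where some of them release growth factors, cytokines and receptors from the cell surface, while others have lost protease activity and many are known mainly from sperm. Adamts enzymes are secreted and cut proteoglycans, procollagens and von Willebrand factor; Adamts-like proteins share their outer domains without a protease domain. Timp proteins bind the active site of these enzymes. In marrow, matrix and membrane cleavage of this kind is known for its part in bone turnover, the egress of neutrophils and the release of niche factors.

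A ratio was given for 39 of the 75 members at day 1 (52.0%) and for 43 at day 3 (57.3%), against 63.7% and 69.6% of all named genes. Of the 75, 35 had a ratio on both arrays, 4 at day 1 only, 8 at day 3 only and 28 on neither. All 4 Timp genes were measured on both arrays, as were 9 of 16 secreted and 4 of 6 membrane-type Mmp genes, 8 of 27 Adam and 9 of 18 Adamts genes, and 1 of 4 Adamts-like genes. Genes with no ratio on either array included the stromelysin Mmp10, the macrophage elastase Mmp12, the mouse interstitial collagenases Mmp1a and Mmp1b, and Adam8, a sheddase of myeloid cells. Most of the 12 Adam genes in that group, such as Adam3 and Adam18, are known from sperm. An empty entry is no level and is not counted as lower.

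**Figure D1:**
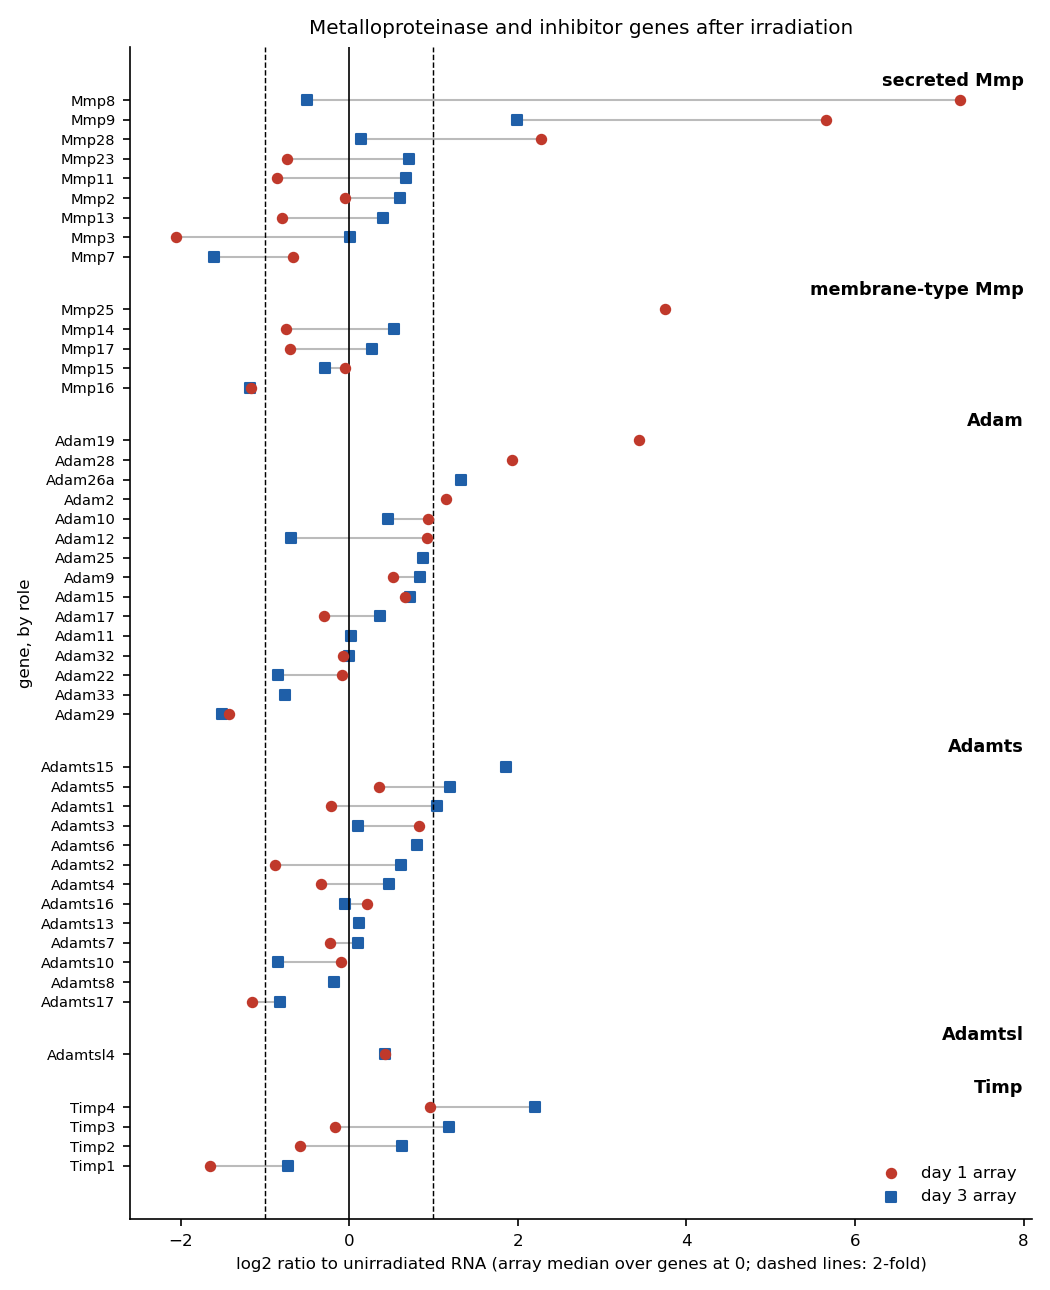
Log2 ratio to unirradiated RNA (horizontal axis) of the 47 members with a ratio on at least 1 array, grouped by role on the vertical axis, with circles for day 1, squares for day 3, a grey line joining values of the same gene and dashed lines at 2-fold. Mmp8 and Mmp9 stand far to the right at day 1, and all 4 Timp genes lie further right at day 3 than at day 1.

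At day 1 a few enzymes known from leukocytes were far higher, while Mmp3 and Timp1 were lower. Of the 39 members with a ratio, 7 were counted as higher (17.9%) and 5 as lower (12.8%). Over all 10434 genes of that array the shares were 19.6% and 11.1%, so the count of members past 2-fold (30.8%, against 30.7% of all genes) is not a result about the family. The split between higher and lower depends on what is set to 0: it became 11 and 3 with the density peak over genes at 0 (all genes 23.6% and 7.42%), and 13 and 2 with ribosomal protein genes at 0 (all genes 32.3% and 3.48%). Those settings raise every gene by 0.19 and 0.52 at day 1. The 4 members with a ratio at day 1 only (Mmp25, Adam19, Adam28 and Adam2) were all among the 7 higher ones. Of the 35 members with a ratio on both arrays, 3 were higher (8.57%) and 5 lower (14.3%). With the median taken over the 9800 genes measured on both arrays, 4 were higher and 5 lower. Those genes gave 18.3% and 10.4%.

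Mmp8, the collagenase stored in neutrophil granules, had a log2 ratio of 7.25 at day 1 (152-fold) and -0.50 at day 3. It ranked 14 from the top among 10434 genes at day 1. Mmp9, the gelatinase of neutrophil granules that osteoclasts and macrophages also make, stood at 5.66 (50.6-fold) at day 1 and at 1.99 (3.98-fold) at day 3, rank 90 from the top on the first array and 97 on the second. Mmp25, a membrane-anchored Mmp of leukocytes, stood at 3.75 (13.4-fold) at day 1 and had no ratio at day 3. Thus Mmp8 was high at day 1 alone and Mmp9 was high on both arrays, and for Mmp25 the later time is not known.

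Granulocyte markers were high on the same array. All 19 measured granulocyte genes were higher at day 1, from 4.07 (Lcn2) to 8.28 (Chil3) with a median of 5.89, and all 12 pan-leukocyte genes were too, with a median of 5.54. At day 3 the 13 granulocyte genes with a ratio ranged from -3.19 to 0.78, with 7 lower, and the 5 pan-leukocyte genes with one had a median of -0.24. Macrophage genes had medians of 2.97 at day 1 (12 genes) and 0.82 at day 3 (10 genes). Osteoclast genes had medians of 0.66 and 0.17 (7 genes each), and 2 of them were higher at day 1, Dcstamp (4.05), whose product osteoclast fusion needs, and Nfatc1 (1.06), which encodes a transcription factor. The part of these cells in the ratios of Mmp8, Mmp9 and Mmp25 was not tested. In such a bulk sample fewer cells of a type and less RNA per cell cannot be told apart. Among the mesenchymal stroma markers 13 of 15 had a ratio on each array, and since the values are ratios, their absolute level is not known.

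**Figure D2:**
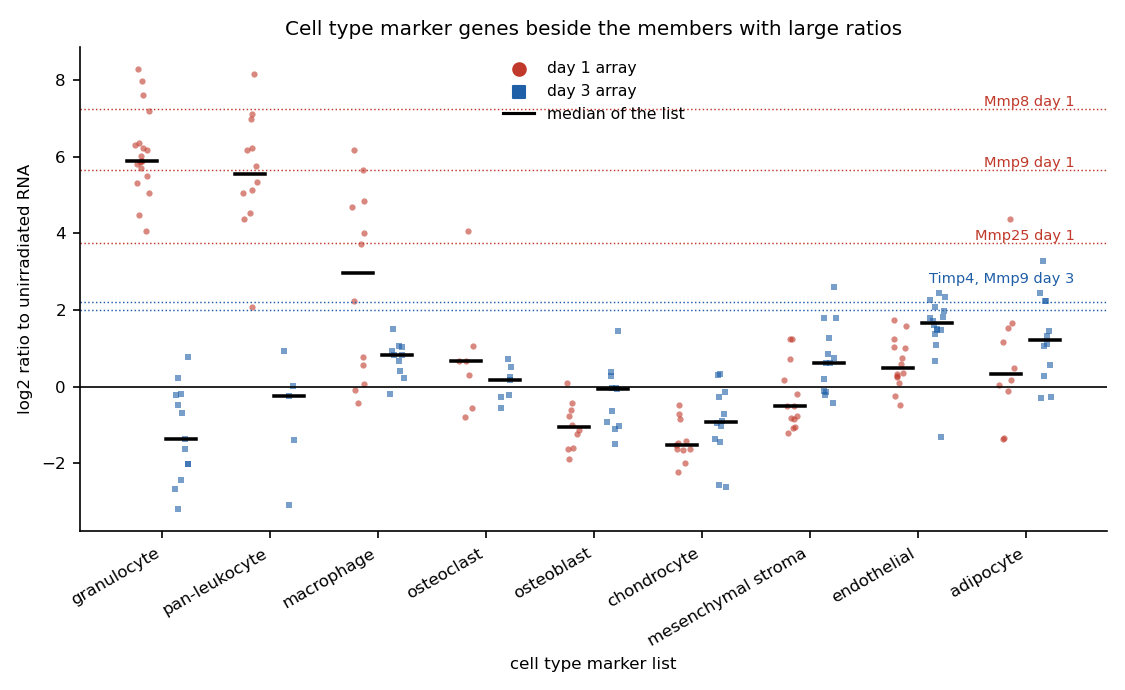
Log2 ratio to unirradiated RNA (vertical axis) of marker genes in 9 cell type lists (horizontal axis), circles for day 1, squares for day 3 and black bars for list medians; dotted lines mark the day 1 values of Mmp8, Mmp9 and Mmp25 and the day 3 values of Timp4 and Mmp9. At day 1 Mmp8 and Mmp9 lie within the range of granulocyte genes, and Mmp25 lies below it.

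Enzymes of the same substrate class differed widely. Among the gelatinases, Mmp2, which is made by mesenchymal cells, stood at -0.05 at day 1 and 0.60 at day 3, so that Mmp9 exceeded it by 5.71 and 1.39 on the log2 scale. Among the collagenases, Mmp13, the enzyme of osteoblasts and hypertrophic chondrocytes, stood at -0.80 and 0.41, and Mmp8 exceeded it by 8.05 at day 1 but lay 0.91 below it at day 3, a difference of -0.91. Such differences within one array do not depend on what is set to 0.

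Mmp3, stromelysin 1, which cuts many matrix proteins and activates other Mmp precursors, was the lowest member at day 1 at -2.05 (4.14-fold lower), rank 105 from the bottom of the array. At day 3 it stood at 0.01, level with unirradiated RNA. Mmp8, Mmp3 and Mmp13 belong to a run of 7 adjacent protein-coding genes in the RefSeq table for GRCm38.p6 (Mmp13, Mmp12, Mmp1b, Mmp3, Mmp1a, Mmp10 and Mmp8), and the other 4 had no ratio. Members of that run therefore held the highest and the lowest ratio of the family at day 1.

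The 250 bases before the start of Mmp8 and Mmp3 are shown because these genes of a single run lie at opposite ends of the day 1 values, and those of Mmp7, on the same chromosome, because it was the lowest member at day 3. They come from RefSeq promoters on GRCm38.p6, plus strand, at chr9:7558179-7558428 for Mmp8, chr9:7445572-7445821 for Mmp3 and chr9:7691840-7692089 for the first of the 2 listed starts of Mmp7. Capitals mark matches on either strand to TGANTCA (AP-1), TTNNGCAA (C/EBP) or GAGGAA (Ets), none of which overlap here.
Mmp8: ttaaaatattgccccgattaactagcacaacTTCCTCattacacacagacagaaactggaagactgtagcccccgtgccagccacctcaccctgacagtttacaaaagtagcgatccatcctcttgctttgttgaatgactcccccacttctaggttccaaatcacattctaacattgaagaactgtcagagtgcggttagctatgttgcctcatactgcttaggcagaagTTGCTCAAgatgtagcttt
Mmp3: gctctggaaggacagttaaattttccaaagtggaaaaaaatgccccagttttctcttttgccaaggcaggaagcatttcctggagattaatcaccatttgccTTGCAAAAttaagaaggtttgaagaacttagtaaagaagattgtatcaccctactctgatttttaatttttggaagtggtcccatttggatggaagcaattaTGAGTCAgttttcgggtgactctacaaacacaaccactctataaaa
Mmp7: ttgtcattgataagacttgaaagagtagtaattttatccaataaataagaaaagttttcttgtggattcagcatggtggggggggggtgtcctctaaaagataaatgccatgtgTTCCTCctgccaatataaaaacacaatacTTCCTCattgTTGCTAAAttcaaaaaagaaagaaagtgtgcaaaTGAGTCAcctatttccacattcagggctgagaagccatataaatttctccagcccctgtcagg
The window of Mmp8 held 1 C/EBP match beginning 19 bases before the start, 1 Ets match and no AP-1 match. That of Mmp3 held 1 AP-1 match (TGAGTCA) beginning 46 bases before the start and 1 C/EBP match. That of Mmp7 held 1 AP-1 match beginning 63 bases before the start, 1 C/EBP match and 2 Ets matches. The window of the other listed start of Mmp7 held no match to any of these motifs. The window of Adam29, lower on both arrays, held 1 match to each motif and is not shown. Windows of the same length held an AP-1 match in 6.87%, a C/EBP match in 9.55% and an Ets match in 23.1% of 27025 genes. Of the 45 members with a window in the table, 9, 8 and 9 held such matches. A match of letters is a description and shows no binding. Mmp9 and Adamts15, high at day 3, had no promoter in the set used and are named only.

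Of the AP-1 genes, whose products bind the first of these motifs, Fosl1 stood at 5.31 at day 1 and 0.49 at day 3. Of the 8 AP-1 genes with a ratio at day 1, Fosl1 alone was outside 2-fold, and of the 8 at day 3 Maf alone (1.26). Over all genes 30.7% and 14.2% were outside 2-fold. Fos (0.16 and 0.56) and Jun (-0.47 and 0.25) were within it on both arrays.

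Most of the remaining Mmp genes were below 0 at day 1 and above it at day 3, within 2-fold each time. Mmp14, the membrane-type enzyme that activates pro-Mmp2 together with Timp2, stood at -0.75 and 0.53. Mmp11, a stromelysin of fibroblasts, stood at -0.85 and 0.67, Mmp23, which is cut free from the membrane and is grouped here with the secreted enzymes, at -0.74 and 0.71, and the membrane-type Mmp17 at -0.70 and 0.27. Mmp2 and Mmp13 likewise had the higher value at day 3. None of these 6 passed 2-fold on either array, and their ratios are close in size to the spread between probes or below it. The median of all 14 Mmp genes with a ratio at day 1 was -0.69 and that of 13 at day 3 was 0.27, and both kept their sign with the density peak (-0.49 and 0.27) or ribosomal protein genes (-0.16 and 0.80) at 0.

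A few Mmp genes departed from this. Mmp28, epilysin, a secreted Mmp, stood at 2.27 (4.83-fold higher) at day 1 and at 0.14 at day 3. Mmp7, matrilysin, the smallest of the secreted Mmp enzymes in domain structure, stood at -0.67 and -1.61 (3.04-fold lower), the lowest member at day 3. Mmp16, a membrane-type Mmp, was lower on both arrays at -1.16 and -1.18, and with ribosomal protein genes at 0 it no longer passed 2-fold on either. Mmp15, another membrane-type enzyme, stood near 0 (-0.05 and -0.29).

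Chondrocyte and osteoblast markers had medians below 0 at day 1. The 11 measured chondrocyte genes, 8 of them lower, had a median of -1.53, and the 10 osteoblast genes, 5 of them lower, one of -1.07. The medians were -1.01 and -0.54, with 6 and 3 genes lower, when ribosomal protein genes were set to 0. The day 3 medians of these lists were -0.92 (12 genes) and -0.07 (11 genes). The part of these cells in the ratios of Mmp3, Mmp13 and Mmp16 was not tested.

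The Timp genes, whose products hold these enzymes in check, kept one order on both arrays and were all higher at day 3 than at day 1. Timp1, which binds Mmp9 and its precursor, stood at -1.65 (3.14-fold lower) at day 1 and -0.73 at day 3. Timp2, the partner of Mmp14, stood at -0.58 and 0.63, and Timp3, which stays bound to matrix and also inhibits Adam17 and the aggrecanases, at -0.16 and 1.18 (2.27-fold higher). Timp4, an inhibitor with a narrow range of tissues that includes fat and heart, stood at 0.96 and 2.20 (4.59-fold higher). At day 3 Timp4 was the highest member, rank 59 from the top among 11404 genes.

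The difference between day 3 and day 1 was 0.92 for Timp1, 1.21 for Timp2, 1.35 for Timp3 and 1.24 for Timp4. Of the 4, 3 were past 2-fold on the higher side, where 12.1% of all genes were. The median over the 4 was 1.22, against -0.04 over the 9800 genes measured on both arrays, and 1.03 with the density peak at 0. Mesenchymal stroma markers had a median difference of 1.03 (12 genes), endothelial markers one of 1.35 (14 genes) and adipocyte markers one of 0.82 (10 genes). The median Timp ratio at day 1 was -0.37, or 0.15 if ribosomal protein genes are set to 0. The order from Timp1 up to Timp4 cannot be moved by the centring, but with 1 probe per gene some of its steps, such as that from Timp2 to Timp3 at day 1, are smaller than the spread between probes.

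**Figure D3:**
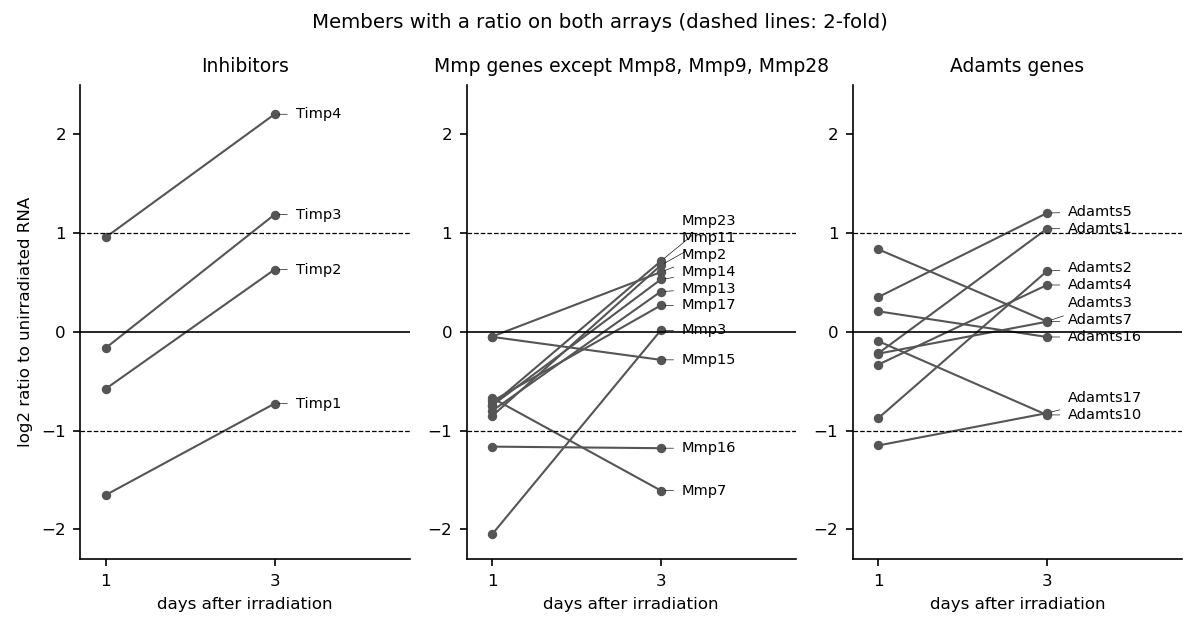
Log2 ratio to unirradiated RNA (vertical axis) at day 1 and day 3 (horizontal axis) for the Timp genes, for 10 Mmp genes other than Mmp8, Mmp9 and Mmp28, and for 9 Adamts genes, each line a gene and dashed lines at 2-fold. The Timp lines run almost in parallel, while the Adamts lines cross.

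Enzyme and inhibitor were also compared within each array. The ratio of Mmp9 exceeded that of Timp1 by 7.31 at day 1 and by 2.72 at day 3. For Mmp8 and Timp1 the difference was 8.90 at day 1 and 0.23 at day 3. Mmp14 and Timp2 had close ratios, with differences of -0.17 and -0.10, and so had Mmp2 and Timp2, with 0.53 and -0.03. These are differences between ratios and say nothing about which transcript was the more abundant.

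With each array's median at 0, the Adam genes best known as sheddases were within 2-fold on both arrays. Adam17, which releases tumour necrosis factor and ligands of the epidermal growth factor receptor, stood at -0.30 at day 1 and 0.37 at day 3, and Adam10, which cuts Notch receptors and many adhesion molecules, at 0.93 and 0.47. Adam9 and Adam15, membrane proteases of many tissues, followed at 0.52 and 0.85 for Adam9 and at 0.66 and 0.72 for Adam15. Adam10 lies just under the 2-fold line at day 1, by less than the spread between probes. With ribosomal protein genes at 0 the value of Adam17 at day 1 turned to 0.22.

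Larger ratios were found in Adam genes measured at day 1 only. Adam19, meltrin beta, which can cut neuregulin, stood at 3.43 (10.8-fold higher), and Adam28, described from lymphocytes, at 1.94 (3.82-fold higher). Adam2, a sperm protein, stood at 1.14. None of the 3 had a ratio at day 3, and every member with a ratio at day 1 only was counted as higher. On the day 1 array pan-leukocyte genes had a median of 5.54, and B lineage genes one of -0.55 (5 genes, none higher and 1 lower). T and natural killer cell genes had one of 2.75 (3 genes, 2 higher). The part of these cells in the ratios of Adam19, Adam28 and Adam2 was not tested. The Adam gene that differed most between the arrays was Adam12, meltrin alpha, known from mesenchymal cells, at 0.92 and -0.68.

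Among Adam genes best known from testis, Adam29 was lower on both arrays (-1.42 and -1.50) and Adam32 stood near 0 (-0.07 and -0.0021). With ribosomal protein genes at 0, Adam29 was inside 2-fold on both arrays (-0.90 and -0.97). Adam26a (1.32) and Adam25 (0.87) had a ratio at day 3 only. Adam26a was the 1 member with more than 1 probe: 1 of its 2 probes gave a ratio, so no member has a spread between probes of its own. Many of these genes belong to families of similar sequence, and whether their probes tell members apart was not assessed. The Adam median was 0.66 on the day 1 array (11 genes) and 0.20 on the day 3 array (12 genes).

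With array medians at 0, some regulators of Adam10 and Adam17 had ratios past 2-fold. At day 1 the 10 measured regulators included 3 higher and 2 lower genes, where all genes gave 19.6% and 11.1%. With so few genes these counts are not a result about the regulators. Rhbdf2, the inactive rhomboid that carries Adam17 to the surface of myeloid cells, stood at 2.18 and 0.65, Tspan14, a tetraspanin partner of Adam10, at 1.65 and 0.38, and Frmd8, which stabilises the rhomboid complex, at 1.11 and -0.49. Tspan33, a tetraspanin partner of Adam10 that is prominent in erythroid cells, was lower on both arrays at -3.34 and -2.83, and Tspan17 stood at -1.16 and 0.41. Erythroid markers had medians of -2.80 and -1.79. On each array 9 of 11 were lower, against 11.1% and 6.85% of all genes, and 1 was higher at day 1. The part of erythroid cells in the ratios of Tspan33 was not tested. At day 3 Tspan33 was the 1 regulator of 10 outside 2-fold, where 14.2% of all genes were. Rhbdf1, the homologue of Rhbdf2 found in other tissues, stood at -0.65 and 0.38.

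Of the proteins that Adam enzymes release, 15 were measured at day 1 (5 higher, 2 lower) and 16 at day 3 (6 higher, none lower). Over all genes 19.6% were higher and 11.1% lower at day 1, and 7.35% and 6.85% at day 3. Tnf, the inflammatory cytokine freed by Adam17, stood at 5.0 at day 1 and 0.12 at day 3. Notch1, a receptor that Adam10 cuts on ligand binding, stood at 2.57 and 1.73, and the adhesion molecule Icam1 at 1.04 and 1.57. Tnfsf11, the osteoclast differentiation factor, stood at -1.32 and 0.04, and the chemokine Cx3cl1 at -1.05 and 0.65. Transcript ratios do not show whether any of these proteins was cut.

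At day 3 the members past 2-fold were mostly higher, and Timp and Adamts genes made up 5 of the 7 higher ones. Of 43 members with a ratio, 7 were higher (16.3%) and 3 lower (6.98%), where all 11404 genes gave 7.35% and 6.85%. The 7 were Timp4, Mmp9, Adamts15, Adam26a, Adamts5, Timp3 and Adamts1. The 3 were Mmp7, Adam29 and Mmp16. With ribosomal protein genes at 0, which raises every gene by 0.53, the split became 18 and 1, where all genes gave 22.8% and 2.45%. The median of the members was 0.37, with 29 of 43 above 0.

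**Figure D4:**
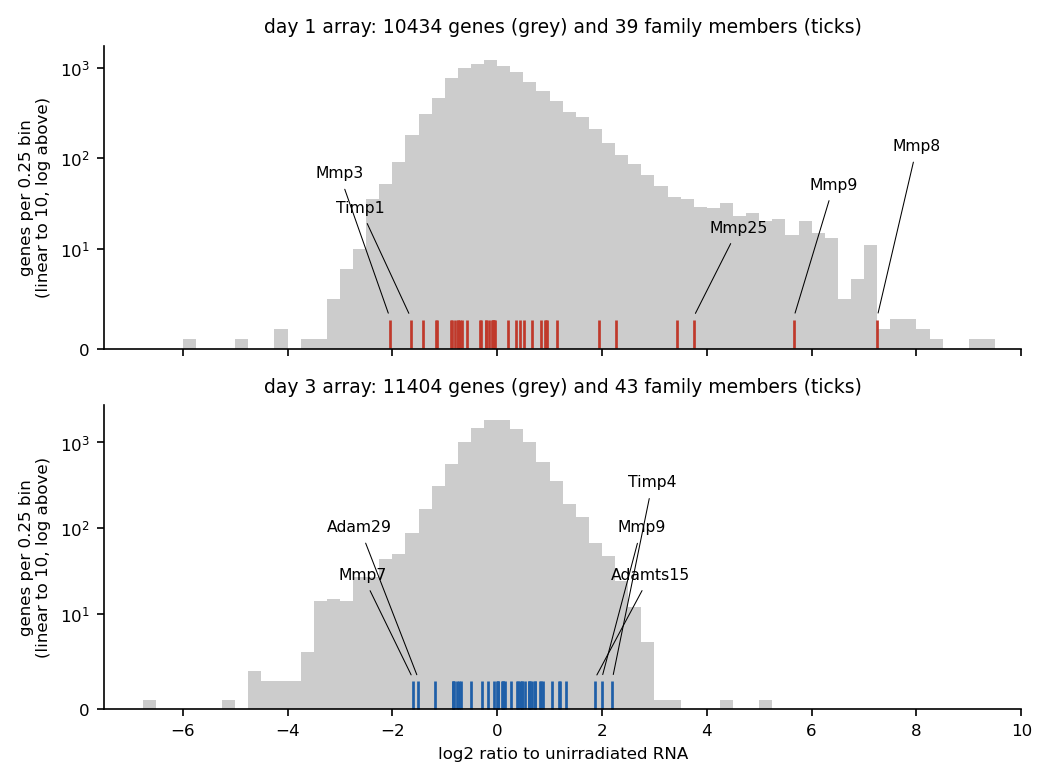
Number of genes per bin of 0.25 (vertical axis, linear to 10 and logarithmic above) by log2 ratio to unirradiated RNA (horizontal axis) on each array, grey for all genes, with a tick for each member that had a ratio. At day 1 the members reach from Mmp3 at -2.05 to Mmp8 at 7.25, and at day 3 from Mmp7 at -1.61 to Timp4 at 2.20.

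The Adamts genes made up 3 of those 7. Adamts15, which cuts aggrecan and versican, stood at 1.86 (3.64-fold higher, rank 123 from the top) with no ratio at day 1. Adamts5, the main aggrecanase of mouse cartilage, stood at 0.35 and 1.20, and Adamts1, a versican-cutting enzyme, at -0.22 and 1.04. Adamts5 and Adamts1 are adjacent genes in the RefSeq table. Adamts15 and Adamts8 are adjacent too, and Adamts8 stood at -0.18 at day 3. Adamts1 lies only just past the 2-fold line.

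Other Adamts genes lay closer to 0. Adamts4, the other well-known aggrecanase, stood at -0.33 and 0.47, and Adamts2, which removes the amino-terminal propeptide of procollagen I, at -0.88 and 0.61. Adamts17 was lower at day 1 (-1.15) and within 2-fold at day 3 (-0.82), and with ribosomal protein genes or the density peak at 0 none of the 9 Adamts genes passed 2-fold on the lower side at day 1. Adamts13, the protease of von Willebrand factor, stood at 0.12 at day 3 with no ratio at day 1. Adamts16 and Adamts7 were, with Adam32, the members nearest 0 that are not named above for another reason, at 0.21 and -0.05 for Adamts16 and at -0.22 and 0.10 for Adamts7. The Adamts median at day 1 (9 genes) was -0.22, turning to 0.30 with ribosomal protein genes at 0, and at day 3 (13 genes) it was 0.12.

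At day 3 endothelial and adipocyte markers were high on the same array as Timp3, Timp4, Adamts1, Adamts5 and Adamts15. The endothelial median was 1.66, and 14 of 16 genes were higher. For adipocyte genes it was 1.21, and 8 of 12 were higher. For the 13 mesenchymal stroma markers the median was 0.61, and 4 were higher, where day 1 had given -0.50. Eng counts in both the endothelial and the mesenchymal list. The part of these cells in the ratios of the 5 genes was not tested.

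Between day 1 and day 3, 35 members could be compared. Of these, 10 were higher at day 3 (28.6%, against 12.1% of 9800 genes) and 4 were lower (11.4%, against 16.8%). The 10 were Mmp3 (2.06), Mmp11 (1.53), Adamts2 (1.49), Mmp23 (1.45), Timp3 (1.35), Mmp14 (1.27), Adamts1 (1.26), Timp4 (1.24), Mmp13 (1.21) and Timp2 (1.21). The 4 were Mmp8 (-7.75), Mmp9 (-3.67), Mmp28 (-2.13) and Adam12 (-1.60). The matrix genes these enzymes act on had a median difference of 0.69 over 19 genes. If the unirradiated extract was common to both arrays it cancels in these differences, and otherwise they also carry the spread between extracts. In either case they carry the spread of both hybridisations.

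The plasminogen system, which activates several pro-Mmp enzymes, and inhibitors outside the Timp family included some of the highest ratios among the other genes of the pathway. The 10 measured at day 1 included 3 higher genes and 1 lower: Plaur, the urokinase receptor, stood at 5.59 and 0.67, Slpi, an inhibitor of neutrophil elastase, at 4.96 and 0.0010, and Serpinb2, an inhibitor of urokinase, at 4.41 and 0.86. A2m, the broad protease trap alpha-2-macroglobulin, was lower on both arrays at -2.84 and -2.02. At day 3, 3 of 12 were higher, and A2m was the 1 lower gene. All genes gave 19.6% higher and 11.1% lower at day 1, and 7.35% and 6.85% at day 3. Plau, urokinase itself, stood at 1.64 at day 3 with no ratio at day 1. Reck, a membrane-bound inhibitor of Mmp enzymes, was within 2-fold at 0.20 and 0.42.

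Genes that activate or clear metalloproteinases went both ways, 4 of 12 being higher and 1 lower at day 1, and 2 higher and 2 lower at day 3. The shares of all genes were 19.6% and 11.1% at day 1, and 7.35% and 6.85% at day 3. Ctsg, a neutrophil protease that can activate pro-Mmp enzymes, stood at 6.36 and -1.62, and Lcn2, which binds Mmp9 in neutrophils, at 4.07 and -0.70. Furin, the convertase that removes the propeptide of Adam and membrane-type Mmp proteins, stood at -0.46 and -1.26. Thbs1, a matrix protein that helps clear Mmp enzymes by endocytosis, stood at 2.02 and 1.34, and its homologue Thbs2 at -1.27 and 0.38. Ctsg and Lcn2 are also in the granulocyte list.

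Transcripts of matrix substrates had medians below 0 on both arrays. The day 1 median was -0.82, and 8 of 19 genes were lower and 1 higher, against 11.1% and 19.6% of all genes. The day 3 median was -0.18, and 3 of 21 were lower and none higher, against 6.85% and 7.35% of all genes. When ribosomal protein genes were set to 0, 2 were lower at day 1, and at day 3 the median turned to 0.36, with 3 genes higher and none lower. Col1a1, a chain of the main bone collagen, stood at -1.14 and -1.50, Hapln1, a link protein of cartilage, at -1.63 and -0.94, and Acan, aggrecan, at -1.45 at day 3 with no ratio at day 1. Col4a1, a chain of basement membrane collagen, stood at 1.46 and 0.62. The substrate of Adamts13, Vwf, had no ratio on either array, nor had the proteoglycan gene Vcan.

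Of 8 other secreted or membrane metallopeptidases, 5 were lower at day 1 and none higher, where all genes gave 11.1% and 19.6%. Their median was -1.16. The count of lower genes fell to 3 with the density peak at 0. It fell to 1, with a median of -0.63, when ribosomal protein genes were set to 0. They included Bmp1 (-1.23), the carboxy-terminal procollagen protease, Phex (-1.24), a peptidase of osteoblasts and osteocytes, and the aminopeptidase Anpep (-1.19). The others lower at day 1 were Mme, the lowest of the list at -1.62, and Enpep (-1.12). At day 3 none of 12 were outside 2-fold. Bmp1, Phex and Anpep stood at -0.41, -0.64 and -0.33, while Mme and Enpep were above 0 at 0.93 and 0.36.

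The other 12 members with a ratio, beside the 35 given with values under the rule for named genes, were all within 2-fold. They ranged from -0.33 to 0.83 at day 1 (7 genes) and from -0.84 to 0.87 at day 3 (12 genes). Adamts3, which acts on procollagen and on the activation of vascular endothelial growth factor C, was the highest of them at day 1 (0.83), and Adamts10, a protein of microfibrils, the lowest at day 3 (-0.84). Adamtsl4, the 1 Adamts-like gene with a ratio, stood at 0.43 on both arrays.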

How the data were processed

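The deposited values are the authors' log ratios between channels, read here as log2; their base, numerator, background correction, normalisation and the reason for empty entries are not given in the sources used here, and folds assume base 2. The table held 23473 probes, with 9515 empty entries at day 1 and 8056 at day 3; the deposited medians were 0.0003 and -0.0001. The platform annotation named 16631 probes, 1 symbol each, of which 12622 were current in RefSeq (GRCm38.p6) and 3947 were updated. The files name no genome build, so probes are given no coordinates; promoter coordinates and gene order are those of the RefSeq tables. Probes of a gene were averaged and each array's median over genes was set to 0 (-0.0119 and 0.0162 subtracted), with Python 3.11.15, pandas 2.3.3, NumPy 2.4.6 and SciPy 1.17.1. Simulated data with planted shifts were used to check the code of the 2-fold rule. They do not show how the rule performs on these arrays. No intensities were used, so signal over background is unknown, and the number of arrays limits precision.

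Members and gene lists were chosen with earlier results of these data known. By rule, values are given for all Timp genes, all Mmp genes with a ratio, other members past 2-fold on an array or between arrays, Adam10, Adam17, Adamts13, the 3 others nearest 0, and up to 3 genes at each end of each pathway list. Pathway genes past 2-fold on an array were ranked by the mean of the available arrays. That can leave out genes that change sign between arrays. Lcn2, Chil3, Dcstamp, Nfatc1, Reck, Rhbdf1, Plau, Mme, Enpep, Fos, Jun, Adam9, Adam15, Adam25, Adamts3, Adamts4, Adamts8, Adamts10 and Adamtsl4 were named after their values were seen. A planned division by the zinc-binding motif was not made, as protein sequences were not used here. Alternatives were other centrings, other ways to combine probes, sizes of 1.5-fold and 3-fold, genes measured on both arrays, and no Adamts-like genes.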

Additional observations from a re-analysis of the deposited data

Results flagged for a closer look

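Of the members measured on both arrays, 3 lay on opposite sides of 0 at the 2 times, each time by more than the spread between probes (0.76 at day 1, 0.58 at day 3). Adam12 stood at 0.92 at day 1 and -0.68 at day 3, Adamts2 at -0.88 and 0.61, and Mmp11 at -0.85 and 0.67. With 1 array per time point the difference between times was not tested, and none of these 6 values reached 2-fold. The pattern also depends on the centring. With the density peak at 0, Adamts2 (-0.68) and Mmp11 (-0.66) lay inside the day 1 spread. With ribosomal protein genes at 0, Adam12 at day 3 (-0.15) and Adamts2 (-0.35) and Mmp11 (-0.33) at day 1 lay inside the spread, so none of the 3 genes met the condition.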

How the results depend on the processing

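The counts of members past 2-fold depended on the centring and the size rule. At day 1, where 7 were higher and 5 lower, the density peak at 0 gave 11 and 3 and ribosomal protein genes at 0 gave 13 and 2, shifts that follow from adding 0.19 and 0.52 to every gene. Using only genes measured on both arrays gave 4 higher (all genes 18.3%), with 4 of the 39 members left out and the median taken over fewer genes. At day 3, where 7 were higher and 3 lower, ribosomal protein genes at 0 gave 18 and 1. A size of 1.5-fold gave 12 higher and 12 lower at day 1, 16 and 9 at day 3, and 16 and 8 for day 3 minus day 1. The shares over all genes were 29.4% and 24.3%, 17.9% and 17.5%, and 23.8% and 26.9% in the same order. A size of 3-fold gave 2 lower at day 1 (all genes 2.88%) and 1 higher for day 3 minus day 1 (all genes 3.14%). At day 3 it gave 3 higher and 1 lower (all genes 2.21% and 2.27%). The rule for named genes gave 63 ratios of members. Of these, 11 changed sign with ribosomal protein genes at 0 and 4 with the density peak at 0. None of those that changed sign was past 2-fold. Of the 22 past 2-fold, 5 and 2 no longer passed it under these 2 settings, while 9 and 3 other values newly passed it. Choosing the probe with the largest or smallest ratio changed no sign and no place past 2-fold among the 63, since each member has 1 probe with a ratio. The p53 and mitotic medians kept their order with ribosomal protein genes at 0. No paired analysis was possible because the labels give no replicate numbers and each time point has 1 array, and no replicate could be left out. The base of the logarithm and the numerator were not settled.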
